A study of Rattus norvegicus with 36 samples.

Results

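Osteopontin, the product of Spp1, and the receptor chains Cd44, Itgav, Itgb1, Itgb3, Itgb5, Itga4 and Itga9 were followed in rats that had inhaled crystalline silica and in rats that had breathed air. The genes were picked as probes carrying these symbols on an Illumina bead array of 21792 probes. Symbols in the array's own annotation gave 5 of the 8 genes, namely Spp1, Cd44, Itgav, Itgb1 and Itga4. RefSeq's current names added 2 more, Itgb5 (annotated on the array as similar to integrin beta-5) and Itga9 (annotated as similar to integrin alpha 9). No probe was matched to Itgb3. Each of the 7 genes found had 1 probe.

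The animals were male Fisher (CDF) 344 rats with a labelled age of about 3 months. In the silica group, 6 rats received 15 mg/m3 of crystalline silica for 6 hours per day on 5 days. The 6 rats of the air group received 0 mg/m3. All tissues were taken 44 weeks after the end of exposure. Total RNA of lung, of the cells in bronchoalveolar lavage fluid (called BALF cells) and of blood was hybridised for each of the same 12 rats, which gave 36 arrays. Lung and lavage RNA come from cell mixtures, so that fewer cells of a type and less RNA per cell cannot be told apart.

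Osteopontin is a secreted, phosphorylated glycoprotein of bone matrix that macrophages and injured epithelium also release as a cytokine. Its Arg-Gly-Asp sequence is bound by integrins made of the Itgav chain with the Itgb1, Itgb3 or Itgb5 chain. Cleavage by thrombin uncovers a further site for the Itga4 and Itga9 chains paired with the Itgb1 chain. CD44, the main hyaluronan receptor, binds osteopontin as well. In the lung, Spp1 is known as a gene of macrophages in inflamed and scarring tissue.

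The promoters of the 3 members that changed in silica lungs are given here from RefSeq on the GRCr8 build, because Spp1 moved much further than its receptors and Cd44 and Itgb5 moved opposite ways. All 7 members measured had an entry in the promoter table, each running from 250 bases before to 50 bases after the annotated start. Those of Spp1 (chr14:5619755-5620054), Cd44 (chr3:109699375-109699674) and Itgb5 (chr11:80449324-80449623) all lie on the minus strand and are written 5′ to 3′ along the gene. Capitals mark the letters of the motifs searched on both strands.
Spp1: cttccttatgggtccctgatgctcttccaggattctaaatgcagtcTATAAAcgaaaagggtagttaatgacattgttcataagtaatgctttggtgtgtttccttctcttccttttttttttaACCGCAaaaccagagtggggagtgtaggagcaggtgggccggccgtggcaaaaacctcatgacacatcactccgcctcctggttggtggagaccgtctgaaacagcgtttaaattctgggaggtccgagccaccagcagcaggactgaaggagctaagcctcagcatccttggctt
Cd44: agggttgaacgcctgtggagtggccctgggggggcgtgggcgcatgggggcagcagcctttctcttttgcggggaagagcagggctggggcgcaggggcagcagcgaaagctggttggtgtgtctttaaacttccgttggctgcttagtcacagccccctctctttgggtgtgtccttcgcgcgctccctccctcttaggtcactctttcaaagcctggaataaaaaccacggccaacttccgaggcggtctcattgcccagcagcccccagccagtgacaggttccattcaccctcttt
Itgb5: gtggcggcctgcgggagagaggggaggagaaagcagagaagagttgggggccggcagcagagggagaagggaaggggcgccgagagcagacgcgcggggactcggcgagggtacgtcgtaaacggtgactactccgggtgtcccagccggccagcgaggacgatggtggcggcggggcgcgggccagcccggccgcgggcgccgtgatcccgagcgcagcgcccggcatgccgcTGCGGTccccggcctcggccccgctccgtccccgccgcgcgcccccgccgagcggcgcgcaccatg
The motifs searched were the RUNX core as TGTGGT or TGCGGT, the AP-1 site TGANTCA, the MITF and TFE3 site CATGTG, the SP1 box GGGCGG and the TATA box TATAAA. The Spp1 window held the letters TATAAA at positions -204 to -199 from the start and a RUNX core on the opposite strand at -126 to -121. Over 33469 rat promoters of this length, 14.2% held TATAAA and 22.9% held either RUNX form. The Cd44 window held none of these letters, and the Itgb5 window held a RUNX core at -16 to -11. A RUNX core was not particular to members called in lung. Itga4 and Itga9, which were not called, held one at -59 to -54 and at -131 to -126. No overlap between motifs occurred in the 3 windows printed. Such matches describe letters in a window and show no binding.

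Between 10974 and 11607 probes were detected per lung array, 9229 to 9773 per BALF array and 7244 to 8861 per blood array, where detection means a detection p-value under 0.05. Values below are log2 normalized intensities unless called raw, which means the deposited mean bead intensity. Known marker genes were detected in each tissue. All 8 alveolar type 2 genes passed the detection filter in lung. All 11 alveolar macrophage genes with a probe did so in BALF cells, where Sftpc and Sftpb did not. All 7 erythroid genes did so in blood. Lung also passed all 7 erythroid genes and 10 of the 11 alveolar macrophage genes, so these passes do not single out blood or BALF cells. Background correction here used a background spread of 188 to 355 intensity units inferred for lung arrays, while the quantiles of the detection p-values gave 9.42 to 12.9. This larger spread lifted the lowest value in lung to 7.36 on the log2 scale, against 4.31 with the smaller spread, so that folds of dim probes are understated. Where the smaller spread moved a named value by over 1.5 times or changed a call, that value is given with the main one, as an alternative chosen after seeing the data.

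Spp1 was the member with the largest difference, and it rose in silica lungs. Its raw intensity was 1167 at the lowest, 2740 at the median and 5849 at the highest in silica lungs, against 110, 126 and 229 in air lungs. Every silica lung lay above every air lung, by a gap of 1.92 log2 units between the lowest silica and the highest air array. The probe was detected on all 6 arrays of both groups. On the normalized scale, Spp1 averaged 11.20 ± 0.94 in silica lungs and 7.58 ± 0.12 in air lungs (SD, n = 6 each). The difference of 3.62 ± 0.36 log2 units (SE) is 12.3-fold, with a 95% interval of 7.06 to 21.4-fold and an adjusted p of 0.000165 (limma, Benjamini-Hochberg over 11399 probes). With the smaller background spread, the same difference was 4.91 ± 0.37 log2 units, or 30.0-fold, with a limma adjusted p of 1.79e-06. Only 1 of the 11399 probes tested had a larger difference.

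The silica lungs also differed among themselves in Spp1. The 6 silica lungs spanned a 6.98-fold range, while the 6 air lungs spanned 1.24-fold. Silica replicate 6 was the lowest at 9.73 and silica replicate 5 the highest at 12.53. Leaving out each array in turn kept the lung difference between 3.35 and 3.91 log2 units.

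Spp1 also rose in the lavage cells of silica rats. The raw intensity was 3139 at the lowest, 14978 at the median and 23358 at the highest in silica BALF cells, against 821, 1118 and 1937 in air BALF cells. Every silica array again stood above every air array. Means were 13.55 ± 1.05 in silica and 9.99 ± 0.49 in air BALF cells (SD, n = 6 each). The difference of 3.56 ± 0.45 log2 units (SE) corresponds to 11.8-fold, with a 95% interval of 5.96 to 23.3-fold and a limma adjusted p of 0.000128 over 9564 probes. In BALF cells, too, 1 probe exceeded it in size of change.

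**Figure D1:**
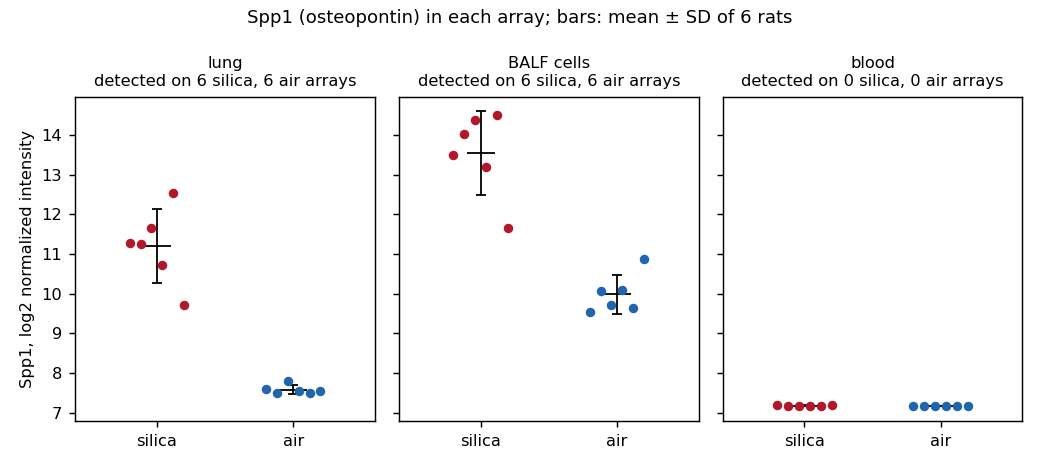
Spp1 log2 normalized intensity on each array of lung, BALF cells and blood, with silica rats left of air rats; points are rats and bars give the mean and SD of 6. Silica lungs reach 9.73 to 12.53 and air lungs 7.50 to 7.80, and silica BALF cells reach 11.66 to 14.51 and air BALF cells 9.54 to 10.87, while the probe was detected on 0 of 12 blood arrays.

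Whether the silica difference in Spp1 itself differed between lung and BALF cells depended on the background correction. Taking each rat's lung value minus its BALF value, the silica minus air difference was 0.06 ± 0.25 log2 units (SE, limma adjusted p = 0.908, 95% interval -0.48 to 0.60). With the smaller background spread it was 1.53 ± 0.32, larger in lung, with a limma adjusted p of 0.00224. Spp1 averaged 11.31 ± 0.87 in silica lungs and 6.40 ± 0.64 in air lungs with the smaller spread (SD, n = 6 each).

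Among silica rats, those with more Spp1 RNA in lung also had more in BALF cells. Silica replicate 6 was lowest and silica replicate 5 highest in both tissues. Over the 6 silica rats, Pearson's r was 0.94 (exact permutation p = 0.00278, adjusted 0.00556 over 2 relations) and Spearman's rho was 0.94 (exact permutation p = 0.0167, adjusted 0.0334). Without the 2 rats farthest from the lung median, r was 0.89. In the 6 air rats r was -0.31 (exact permutation p = 0.503) and rho was -0.26 (exact permutation p = 0.658, both tests two-sided). The air value rests on few points, because r became 0.64 without the 2 farthest rats. No pooled r is given, since silica and air rats form separate clusters.

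**Figure D2:**
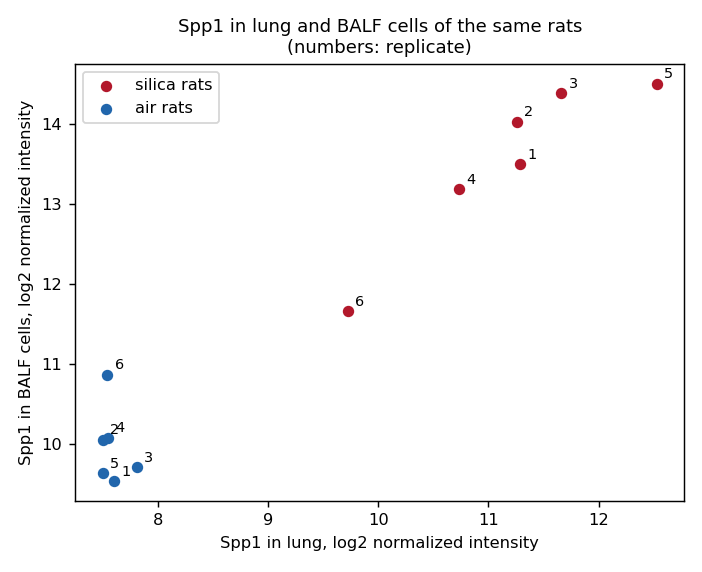
Spp1 log2 normalized intensity in lung (horizontal axis) and in BALF cells (vertical axis) of the same rats, numbered by replicate. The 6 silica rats run from 9.73 in lung and 11.66 in BALF cells (replicate 6) up to 12.53 and 14.51 (replicate 5), and the 6 air rats lie together at the lower left.

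In blood, Spp1 RNA was not detected. Its raw intensity was 70.5 to 81.1 in silica blood and 69.5 to 75.6 in air blood, and 0 of the 6 arrays in either group passed the detection p-value. No fold is given for it. The relatives of osteopontin in the same family of bone and tooth matrix proteins, Ibsp, Dmp1 and Dspp, did not pass the detection filter in lung or BALF cells. In blood 1 of the 3 passed it and was not called (limma). Ibsp was detected on 3 of 6 silica lungs and 0 of 6 air lungs.

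Of the 7 members tested in lung, 2 were called higher and 1 lower in silica rats. Of all probes tested in lung, 17.7% were called, 8.26% higher and 9.46% lower. Under shifts in place of quantile normalization, this lung background fell to 37 higher and 40 lower (a shift of each array to equal medians, called the median shift) or to 322 higher and 659 lower (a shift that equalised only the probes detected on every array, called the detected-probe shift), against 942 higher and 1078 lower with quantile normalization. In BALF cells 2 of 7 members were called higher and 1 lower, with 33.3% of all probes called, 15.2% higher and 18.1% lower. The BALF background likewise had 275 higher and 207 lower probes under the median shift, against 1458 and 1729 with quantile normalization. In blood, 0 of the 4 members tested were called, as were 0% of all 8044 probes (limma). At an unadjusted p under 0.05, 1072 blood probes but none of the 4 members passed. Groups did not overlap, silica above air, for Spp1 and Cd44 in lung (4.83% of all lung probes) and for Spp1 in BALF cells (9.04% of all BALF probes). No member lay wholly below air in lung or BALF cells, where 4.35% and 9.67% of all probes did. None of the 4 members tested in blood was separated in either direction, while 0.609% of blood probes lay wholly above air and 0.622% wholly below.

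Cd44, which encodes the hyaluronan and osteopontin receptor of leukocytes and epithelium, was higher in silica lungs and lower in silica BALF cells. In lung its lowest, median and highest values were 9.79, 10.17 and 10.27 in silica rats, against 9.46, 9.55 and 9.73 in air rats. All silica lungs lay above all air lungs, with a narrow gap of 0.06 log2 units. The lung difference was 0.50 ± 0.09 log2 units, or 1.42-fold (SE, limma adjusted p = 0.00384). It lost its call under both shifts in place of quantile normalization, at 0.25 with the median shift (adjusted p = 0.492) and 0.37 with the detected-probe shift (adjusted p = 0.133). Silica replicates 3 and 4 gave the lower silica values, both at 9.79.

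In BALF cells Cd44 ran from 11.61 over a median of 11.70 to 11.82 in silica rats, against 11.81, 12.08 and 12.30 in air rats. The groups overlapped through silica replicate 5 alone, and 5 of 6 silica arrays lay below every air array. The BALF difference was -0.33 ± 0.08 log2 units, or 0.798-fold (SE, limma adjusted p = 0.00947), and the median shift gave -0.38 with an adjusted p of 0.309. Air arrays spanned 1.40-fold here and silica arrays 1.15-fold.

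The silica effect on Cd44 differed between lung and BALF cells by 0.83 ± 0.13 log2 units (SE, limma adjusted p = 0.000793), and all 6 silica rats stood above the air mean of this difference. Of all probes compared between lung and BALF cells, 22.5% were called. This contrast also lost its call under the median shift, at 0.64 (adjusted p = 0.344). In blood Cd44 ranged from 8.12 over 8.37 to 8.46 in silica rats, against 7.51, 8.11 and 8.39 in air rats, with overlapping groups. The blood difference of 0.30 ± 0.14 log2 units was not called (limma adjusted p = 0.4). It was 0.46 with the smaller background spread (adjusted p = 0.357) and became 0.13 without the 3 blood arrays of lowest signal, and air replicates 1 and 2, which held the lowest Cd44 values, are among those 3. The effect in BALF cells minus that in blood was -0.62 ± 0.14 log2 units (SE, limma adjusted p = 0.00899, against 22.6% of probes called), and the effect in lung minus that in blood was 0.21 ± 0.17 (adjusted p = 0.547, against 9.44% called), or -0.02 ± 0.22 with the smaller background spread. The array used as blood silica replicate 6 carries that number and its rat's number in 2 labels but ends in 8 in its sample name. Without silica replicate 6 in any tissue, the difference for BALF cells minus blood was -0.63 (limma adjusted p = 0.0159) and that for lung minus blood 0.14 (adjusted p = 0.718).

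Itgav, the alpha-v chain shared by the classical osteopontin-binding integrins, was slightly higher in silica BALF cells. Its values there were 7.72, 7.83 and 8.03 (lowest, median, highest) in silica rats, against 7.68, 7.70 and 7.74 in air rats. The groups overlapped, with 4 of 6 silica arrays above every air array and replicate 3 the highest. The difference was 0.13 ± 0.04 log2 units, or 1.10-fold (SE, limma adjusted p = 0.0367). It lost its call in 8 of the 12 fits that left out an array, with adjusted p-values up to 0.0684. With the smaller background spread the BALF difference was 0.37 ± 0.10 log2 units, or 1.30-fold, with a limma adjusted p of 0.00957.

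In lung, Itgav had 8.05, 8.14 and 8.21 in silica rats, against 8.03, 8.06 and 8.08 in air rats. Here 5 of 6 silica lungs exceeded every air lung, yet the difference of 0.08 ± 0.03 log2 units was not called (limma adjusted p = 0.0534). It was called at 0.10 without silica replicate 4 (limma adjusted p = 0.0112) and at 0.087 without silica replicate 6 (adjusted p = 0.0497). Under the median shift it was -0.04, where the median of all lung probes was -0.06, and relative to that median it was 0.02. With the smaller background spread it was 0.14 ± 0.06 (limma adjusted p = 0.107). In blood the groups overlapped at 7.30 to 7.37 in silica and 7.32 to 7.34 in air rats (0.0097 ± 0.014 log2 units, SE, limma adjusted p = 0.815, and 0.051 with the smaller background spread). The silica effect on Itgav was not shown to differ between lung and BALF cells, at -0.05 ± 0.04 (limma adjusted p = 0.427, 95% interval -0.15 to 0.04), or -0.23 ± 0.10 with the smaller spread (adjusted p = 0.119). For BALF cells minus blood it was 0.12 ± 0.04 (limma adjusted p = 0.0531), or 0.32 ± 0.12 with the smaller spread (adjusted p = 0.0831), and it was called without silica replicate 4 (0.15, adjusted p = 0.0207) or silica replicate 6 (0.14, adjusted p = 0.0354).

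Itgb5, the beta-5 chain that pairs with alpha-v and also binds vitronectin, was lower in silica lungs. Its values were 8.53, 8.69 and 8.91 (lowest, median, highest) in silica lungs, against 8.90, 8.99 and 9.14 in air lungs. The groups overlapped through silica replicate 4 alone, and the other 5 silica lungs lay below every air lung. The difference was -0.31 ± 0.06 log2 units, or 0.805-fold (SE, limma adjusted p = 0.00533). Under the median shift it was -0.54 with an adjusted p of 0.113. Of all lung probes 9.46% were called lower. Endothelial markers were lower in silica lungs for 3 of 7 (Vwf, Tie1 and Ramp2) and higher for 0, with a summed linear intensity of 22462 to 29157 in silica and 30039 to 35626 in air lungs. Alveolar type 1 markers were lower for 3 of 7 (Aqp5, Ager and Cav1) and higher for 0, with sums of 43847 to 47629 in silica and 48895 to 55003 in air lungs. Fibroblast and smooth muscle markers were lower for 3 of 9 (Col1a2, Myh11 and Tagln) and higher for 0, with sums of 17123 to 20797 in silica and 20411 to 23306 in air lungs. The part of these cell types in the Itgb5 result was not tested.

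In BALF cells Itgb5 was dim, at a raw 72.4 to 104.4 in silica rats and 82.4 to 105.8 in air rats, and was detected on 5 of 6 silica arrays and 6 of 6 air arrays. The difference there was -0.014 ± 0.014 log2 units (SE, limma adjusted p = 0.477), or -0.17 ± 0.14 with the smaller background spread (adjusted p = 0.395). The lung effect minus the BALF effect was -0.30 ± 0.06 (limma adjusted p = 0.00414). With the smaller background spread it was -0.14 ± 0.15 with an adjusted p of 0.536, and the call was lost. In blood the probe was detected on 0 silica and 1 air array and was not tested.

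Itgb1, the beta-1 chain that pairs with most alpha chains of the family, was bright in all 3 tissues and was not called in any. Lung values were 12.05 to 12.27 in silica rats and 12.14 to 12.33 in air rats, which overlap, with a difference of -0.06 ± 0.05 log2 units (SE, limma adjusted p = 0.402). BALF values were 11.90 to 12.06 in silica and 11.84 to 11.98 in air rats. All 6 silica BALF arrays lay above the air mean, at 0.08 ± 0.03 log2 units (limma adjusted p = 0.0648, 95% interval 0.01 to 0.15). This BALF difference was called in 3 of the 12 fits that left out an array. The blood difference was -0.17 ± 0.11 (limma adjusted p = 0.548), and its sign turned to 0.22 under the median shift.

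Itga4, the alpha-4 chain that carries lymphocytes and monocytes to inflamed tissue, was not called either. In lung its lowest, median and highest values were 9.07, 9.27 and 9.74 in silica rats, against 8.88, 9.10 and 9.21 in air rats. Silica replicates 1 and 6 were the high ones, and 4 of 6 silica lungs exceeded every air lung. The lung difference was 0.27 ± 0.11 log2 units (SE, limma adjusted p = 0.119), and the BALF difference was -0.11 ± 0.06 (adjusted p = 0.21). Silica BALF arrays stayed within the range of the air arrays. Without air replicate 6 the BALF difference was called (-0.15, limma adjusted p = 0.0491). The blood difference was 0.20 ± 0.13 (limma adjusted p = 0.549). Lung minus blood, the effects differed by 0.07 ± 0.18, or 0.02 ± 0.17 with the smaller background spread, and neither was called. Lung minus BALF, the difference of effects was 0.38 ± 0.14, in the same direction in 6 of 6 silica rats, and missed the threshold (limma adjusted p = 0.0679), which it passed without air replicate 6 (0.44, adjusted p = 0.0454).

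Itga9, the alpha-9 chain, known from airway epithelium and smooth muscle, was near the limit of detection outside lung. It was detected on all 12 lung arrays, on 4 silica and 3 air BALF arrays and on 0 blood arrays. Lung values were 7.68 to 7.77 in silica rats and 7.71 to 7.81 in air rats, and 4 of 6 silica lungs lay below every air lung. The lung difference was -0.04 ± 0.02 log2 units (SE, limma adjusted p = 0.167). Under the detected-probe shift it was 0.02, where the median of all lung probes was 0.06, and relative to that median it was -0.04. In BALF cells the difference was 0.0016 ± 0.0073 (limma adjusted p = 0.898). Under the smaller background spread these were -0.16 ± 0.08 in lung (limma adjusted p = 0.155) and 0.02 ± 0.08 in BALF cells (adjusted p = 0.846), and their difference was -0.19 ± 0.13, against -0.05 ± 0.03.

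**Figure D3:**
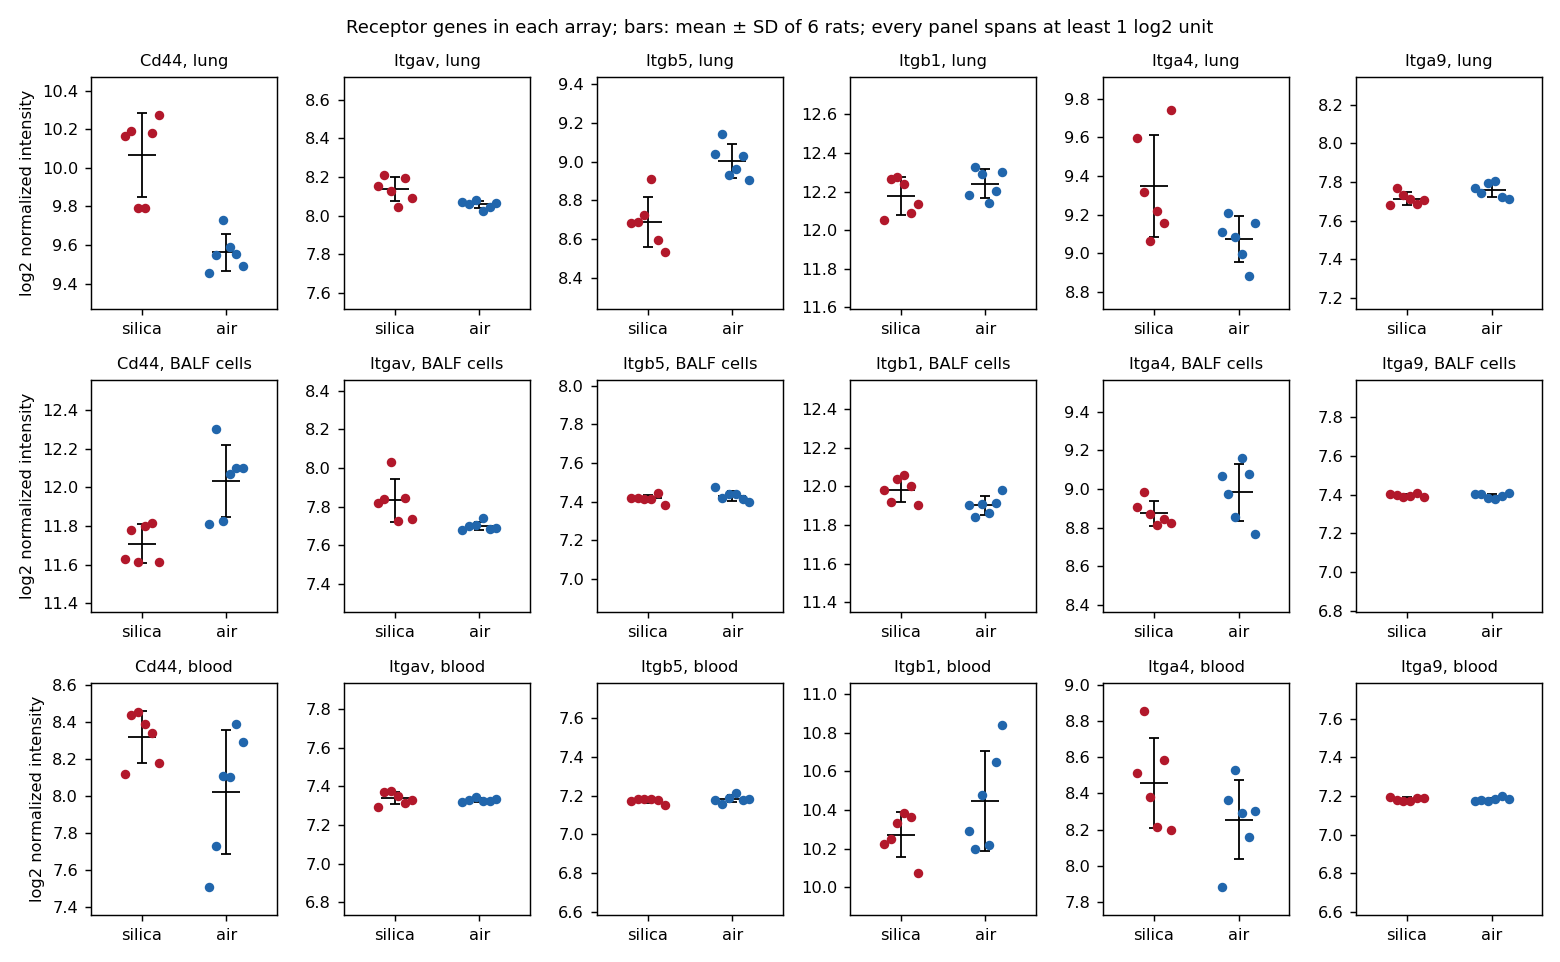
Log2 normalized intensity of the 6 receptor genes on each array, with tissues in rows and silica rats left of air rats; bars give the mean and SD of 6 rats. Cd44 is higher in silica lungs (9.79 to 10.27, against 9.46 to 9.73 in air lungs) and lower in silica BALF cells (11.61 to 11.82, against 11.81 to 12.30), and Itgb5 is lower in silica lungs.

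**Figure D4:**
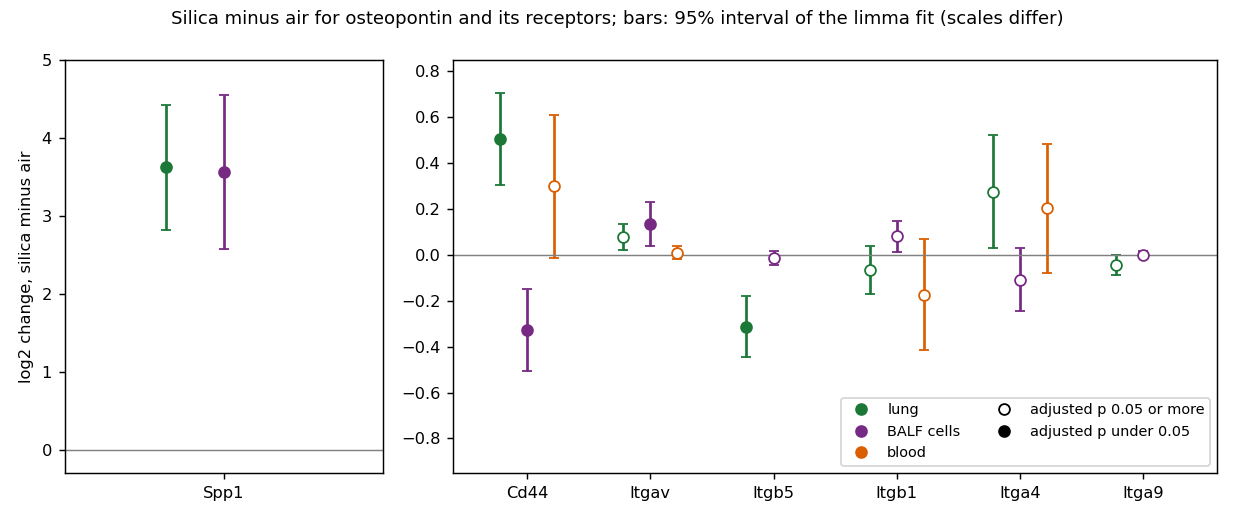
Log2 change, silica minus air, with the 95% interval of the limma fit for each member tested in lung, BALF cells and blood; filled points have an adjusted p under 0.05, and the Spp1 panel has its own scale. Spp1 stands at 3.62 in lung and 3.56 in BALF cells, while the receptor changes lie between -0.33 and 0.50.

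Levels across tissues were read from arrays of all 3 tissues normalized together, with no test, because the tissues' tables were deposited separately. In silica rats the Spp1 values of BALF cells (11.30 to 14.34) and lung (9.16 to 12.28) overlapped. In air rats BALF cells (9.32 to 10.54) lay above lung (7.37 to 7.55) without overlap. Cd44 was highest in BALF cells, at 11.25 to 11.46 in silica and 11.45 to 11.94 in air rats. On this scale blood came next in silica rats (9.82 to 10.21), above lung (9.22 to 9.71). In air rats blood (8.59 to 10.13) and lung (8.89 to 9.16) overlapped. The order of blood and lung rests on this normalization, which gives all arrays the same distribution. Raw Cd44 ran the other way, at 325 to 756 in silica blood and 1011 to 1604 in silica lungs. It was 154 to 577 in air blood and 818 to 1103 in air lungs. The raw 95th percentile was 514 to 1104 on blood arrays and 2276 to 2980 on lung arrays.

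With the tissues normalized together, Itga4 was highest in blood, above BALF cells and lung. Its blood values were 9.91 to 10.54 in silica and 9.48 to 10.27 in air rats. On that scale its BALF values in silica rats (8.70 to 8.85) fell within the lung values (8.53 to 9.17). Raw Itga4 was not highest in blood. In silica rats it was 327 to 968 in blood, 572 to 706 in BALF cells and 668 to 1178 in lung. In air rats it was 236 to 523 in blood, 560 to 932 in BALF cells and 675 to 812 in lung. On the joint scale, Itgb1 in silica rats was 11.70 to 11.96 in lung. It was 11.55 to 11.70 in BALF cells and 11.44 to 11.62 in blood, which overlapped. Raw Itgb1 in silica rats was 4331 to 5180 in lung, 3731 to 4687 in BALF cells and 1017 to 2064 in blood. The raw blood values thus lay below those of both other tissues. Itgb5 was brightest in lung, at 8.08 to 8.39 in silica and 8.39 to 8.59 in air rats. In BALF cells it was 7.35 to 7.43 in silica and 7.38 to 7.47 in air rats. Itgav lay within 7.72 to 8.10 in all tissues of silica rats on the joint scale, and the tissues overlapped. Its raw values in silica rats were 329 to 391 in lung, 206 to 324 in BALF cells and 117 to 206 in blood.

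The 5 genes whose values followed Spp1 most closely were not the same in lung and in BALF cells, a difference that was not tested. Likeness was measured as Pearson's r over 12 arrays of a tissue, of values after each group's mean was removed, and is a description only. Spp1 had SDs of 0.94 in silica and 0.12 in air lungs, and of 1.05 and 0.49 in BALF cells. These r values therefore rest mainly on the 6 silica rats. The top 5 were picked from 11399 probes in lung and 9564 in BALF cells, and such picking by itself raises r. In lung the top 5 were Slc3a1, a subunit of cystine transporters (0.94), Kng1, the kininogen gene (0.93), Obsl1 (0.93), Bace2, an aspartyl protease (0.92), and Cfi, complement factor I (0.91). In BALF cells they were Apoe (0.93), Fgf7, a fibroblast growth factor (0.89), Ccl7, a monocyte chemokine (0.89), and the uncharacterised entries LOC498625 (0.88) and LOC497733 (0.87). Apoe encodes the main lipid carrier protein of macrophages. With the group means kept, which adds the shared silica difference, the closest gene was Cfi in lung (0.99) and Lat2 in BALF cells (0.98). Among the receptors Itgav was the closest by deviations, with r of 0.63 in lung and 0.63 in BALF cells.

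Most called genes among the other ligands of these receptors were lower in silica lungs and higher in silica lavage cells. In lung 6 of 15 tested ligand genes were lower and 1 was higher in silica rats, with a median change of -0.21 log2 units, against -0.0043 over all probes tested. Of all lung probes 9.46% were called lower and 8.26% higher. The ligand counts became 1 lower and 0 higher under the median shift, and 5 and 0 under the detected-probe shift. Vtn, the vitronectin gene, fell by 0.69 (SE 0.06, limma adjusted p = 6.1e-05), with 9.79 ± 0.12 in silica and 10.48 ± 0.07 in air lungs (SD). Vwf, the von Willebrand factor of endothelium, fell by 0.57 (SE 0.09, adjusted p = 0.00162), and Postn, the periostin gene, fell by 0.45 (SE 0.11, adjusted p = 0.014). Fgg, the fibrinogen gamma chain, was the member that rose, by 0.44 (SE 0.10, limma adjusted p = 0.0139).

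In BALF cells 5 of 7 tested ligand genes were higher and 2 lower, against 15.2% and 18.1% of all BALF probes. The counts were 4 and 1 under the median shift and 3 and 2 under the detected-probe shift. The list had a median of 0.05 against -0.0057 over all probes, and of 0.70 with the smaller background spread. Fn1, the fibronectin gene, rose 3.81-fold (1.93 ± 0.18 log2 units, SE, limma adjusted p = 1.34e-05), with 12.78 ± 0.14 in silica and 10.85 ± 0.44 in air BALF cells (SD). Its lung change was -0.24 ± 0.08 and was not called (adjusted p = 0.0592). Adam15, a membrane protease that carries an integrin-binding sequence, rose by 0.65 ± 0.07 (adjusted p = 3.27e-05), or by 1.51 with the smaller spread. Mfge8, which bridges dying cells to alpha-v integrins, fell by 1.17 (SE 0.15, limma adjusted p = 0.00013). Ccn2, a matricellular growth factor, fell by 0.41 (SE 0.09, adjusted p = 0.00533). Both also fell in lung, Mfge8 by 0.30 (SE 0.09, limma adjusted p = 0.0338) and Ccn2 by 0.30 (SE 0.07, adjusted p = 0.0103).

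Integrin chains of myeloid cells were among those that rose. In lung 3 of 14 other integrin chains were higher and 3 lower, with a median of -0.01, against 8.26% and 9.46% of all lung probes. The counts became 0 and 0 under the median shift and 0 and 1 under the detected-probe shift. Itgb2, the beta-2 chain of leukocytes, rose by 0.32 ± 0.08 (SE, limma adjusted p = 0.0185), and Itga1, a collagen-binding chain, fell by 0.54 (SE 0.10, adjusted p = 0.0049). Itga8 and Itga5, whose products also bind Arg-Gly-Asp, fell by 0.19 (SE 0.03, limma adjusted p = 0.00252) and 0.16 (SE 0.03, adjusted p = 0.00469). These were, under the smaller background spread, -0.58 for Itga8 and -0.41 for Itga5. In BALF cells 3 of 8 chains were higher and 1 lower, with a median of 0.03, and 2 were higher and 0 lower under both shifts. The background was 15.2% of BALF probes higher and 18.1% lower. Itgam, the alpha-M chain of monocytes and neutrophils, rose by 0.75 ± 0.06 (limma adjusted p = 3.77e-06), and Itgb7, which also pairs with alpha-4, rose by 0.26 ± 0.02 (adjusted p = 5.53e-06). Itgal, the alpha-L chain, fell by 0.13 (SE 0.02, limma adjusted p = 0.00141). The changes under the smaller background spread were 2.62 for Itgam, 1.61 for Itgb7 and -0.29 for Itgal. Both lists' medians changed sign under a shift in place of quantile normalization, lung to 0.07 and BALF cells to -0.0085. The median over all probes was then 0.06 in lung (detected-probe shift) and -0.01 in BALF cells (median shift).

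Several enzymes that act on osteopontin rose in both compartments. In lung 5 of 13 were higher and 1 lower, with a median of -0.0049, and in BALF cells 8 of 11 were higher and 0 lower, with a median of 0.30. Of all probes 8.26% were called higher in lung and 15.2% in BALF cells. Higher members numbered 2 in lung and 4 in BALF cells under the median shift, and 4 and 5 under the detected-probe shift. The lung median turned positive without background correction, to 0.07, and the BALF median was 0.94 with the smaller background spread. Mmp12, the macrophage elastase, rose by 2.68 ± 0.23 log2 units in lung (6.41-fold, limma adjusted p = 7.31e-05) and by 2.03 ± 0.30 in BALF cells (adjusted p = 4e-04). Ctsk, the collagen-cutting cathepsin of osteoclasts, rose by 1.34 ± 0.23 in lung (adjusted p = 0.00304), and Ctsb by 0.39 ± 0.06 (adjusted p = 0.00224). Mmp7, an epithelial protease that cuts osteopontin, was not detected on any air lung and was at least 1.23-fold higher in silica lungs. That bound sets the silica mean of 7.73 against 7.43, the mean over air arrays of the lowest detected signal or of the probe's own, and the probe's measured air mean was 7.41. The fitted Mmp7 difference in lung, which is no bound, was 0.32 log2 units, and 2.61 with the smaller background spread. Mmp7 passed the detection filter in lung only through the 6 silica arrays, where it is high. Its lung test therefore leaned towards a rise and adds no support, although it is counted among the 5 higher enzymes.

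In BALF cells Mmp7 rose 2.21-fold (1.14 ± 0.15 log2 units, SE, limma adjusted p = 0.000152). Tgm2, the tissue transglutaminase that crosslinks osteopontin, rose by 0.68 ± 0.11 there (adjusted p = 0.000911). Fam20c, the secretory kinase that phosphorylates it, rose by 0.65 ± 0.11 (limma adjusted p = 0.000981). The smaller background spread gave 2.46 for Mmp7 and 2.72 for Fam20c in BALF cells. Thrombin itself, F2, changed by -0.04 ± 0.03 in lung (adjusted p = 0.347) and was not tested in BALF cells.

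Transcription factors known to act on Spp1 in other settings had 1 of 14 members higher and 0 lower in lung, with a median of -0.02, against 8.26% of all lung probes higher and 9.46% lower. That call was lost under the median shift. That gene was Myc, at 0.57 ± 0.05 log2 units (SE, limma adjusted p = 0.000151). In BALF cells 4 of 13 were higher and 1 lower (15.2% and 18.1% of all BALF probes), with a median of 0.04. The median turned to -0.02, and the counts to 1 and 0, under the median shift, where the median over all BALF probes was -0.01. Junb, an AP-1 subunit, rose by 0.69 ± 0.09 (adjusted p = 0.000132), Myc by 0.40 ± 0.11 (adjusted p = 0.0163) and Hif1a, the hypoxia factor, by 0.25 ± 0.07 (limma adjusted p = 0.0149). Nr1h2, a liver X receptor, fell by 0.28 (SE 0.06, adjusted p = 0.00549). Runx2, Mitf and Nfatc1 were not tested in lung or BALF cells.

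Signalling genes downstream of integrins and CD44 had calls in both directions. In lung 2 of 26 were higher and 4 lower, against 8.26% and 9.46% of all lung probes, and 0 and 0 under the median shift. The list had a median of -0.0076. Under the detected-probe shift this median was 0.02, against 0.06 over all lung probes. Fermt3, the integrin activator of blood cells, rose by 0.49 ± 0.08 (SE, limma adjusted p = 0.00185), while Fermt2, its counterpart in adherent cells, fell by 0.27 (SE 0.07, adjusted p = 0.0218). Bcar1, an adhesion scaffold, fell by 0.30 (SE 0.04, adjusted p = 0.00115), and the kinase Syk rose by 0.14 ± 0.04 (limma adjusted p = 0.0255), or by 0.27 with the smaller spread. In BALF cells 1 of 21 was higher and 4 lower, against 15.2% and 18.1% of all BALF probes, and 0 and 0 under the median shift. Ezr, a linker of CD44 to actin, rose by 0.29 ± 0.04 (adjusted p = 0.000299). Akt1, Ptk2b and Syk, all kinases, fell by 0.46 (SE 0.08, adjusted p = 0.000781), 0.33 (SE 0.05, adjusted p = 0.000403) and 0.26 (SE 0.07, limma adjusted p = 0.0102).

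Genes that accompany Spp1 in lipid-handling and scar macrophages were higher as a list in silica lungs. Of 22 tested, 15 were higher and 0 lower, against 8.26% and 9.46% of all lung probes, with a median of 0.39 log2 units. The count was 12 with the detected-probe shift and 3 with the median shift. Beyond Mmp12 and Ctsk, Chi3l1, a chitinase-like lectin, rose by 1.05 ± 0.10 (SE, limma adjusted p = 0.000157), and Gpnmb, a lysosomal glycoprotein, rose by 0.70 ± 0.07 (adjusted p = 0.000209). In BALF cells 11 of 21 were higher and 2 lower (15.2% and 18.1% of all BALF probes), with a median of 0.18. Under the median shift 7 were higher and 0 lower, with a median of 0.084. Apoe rose 27.3-fold there (4.77 ± 0.29, limma adjusted p = 1.25e-06), with 12.41 ± 0.71 in silica and 7.64 ± 0.28 in air BALF cells (SD), and Chi3l1 rose by 1.52 ± 0.12 (adjusted p = 6.81e-06), or by 2.60 with the smaller spread. Trem2 and Tyrobp, a lipid receptor and its adaptor, were higher in silica lungs (0.48 ± 0.09, adjusted p = 0.0053, and 0.27 ± 0.08, limma adjusted p = 0.0418) and lower in silica BALF cells (-0.15 ± 0.03, adjusted p = 0.00404, and -0.17 ± 0.02, adjusted p = 6.81e-05).

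Of osteoclast-type genes that travel with Spp1 in bone, 3 of 8 were higher and 0 lower in lung (median 0.03), and 4 of 7 were higher and 0 lower in BALF cells (median 0.20). The background was 8.26% of probes higher in lung and 15.2% in BALF cells. Under the median shift 1 was higher in each. The smaller background spread gave 5 higher and a median of 0.30 in lung. With Ctsk, they were in lung Atp6v0d2 and Tcirg1, subunits of the proton pump, at 0.49 ± 0.05 (SE, limma adjusted p = 0.00025) and 0.41 ± 0.09 (adjusted p = 0.00768). In BALF cells Oscar, a collagen receptor of osteoclasts, rose by 0.23 ± 0.04 (adjusted p = 0.00205), Ctsk by 0.41 ± 0.12 (limma adjusted p = 0.0248) and Tcirg1 by 0.20 ± 0.06 (adjusted p = 0.0313). Mmp9 rose by 0.08 ± 0.01 (adjusted p = 7.67e-05), although it was detected on 3 of 6 air arrays only. The smaller background spread gave 1.29 for Atp6v0d2 in lung, and 0.46 for Oscar and 0.97 for Mmp9 in BALF cells. In blood none of these lists had a called gene (limma).

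**Figure D5:**
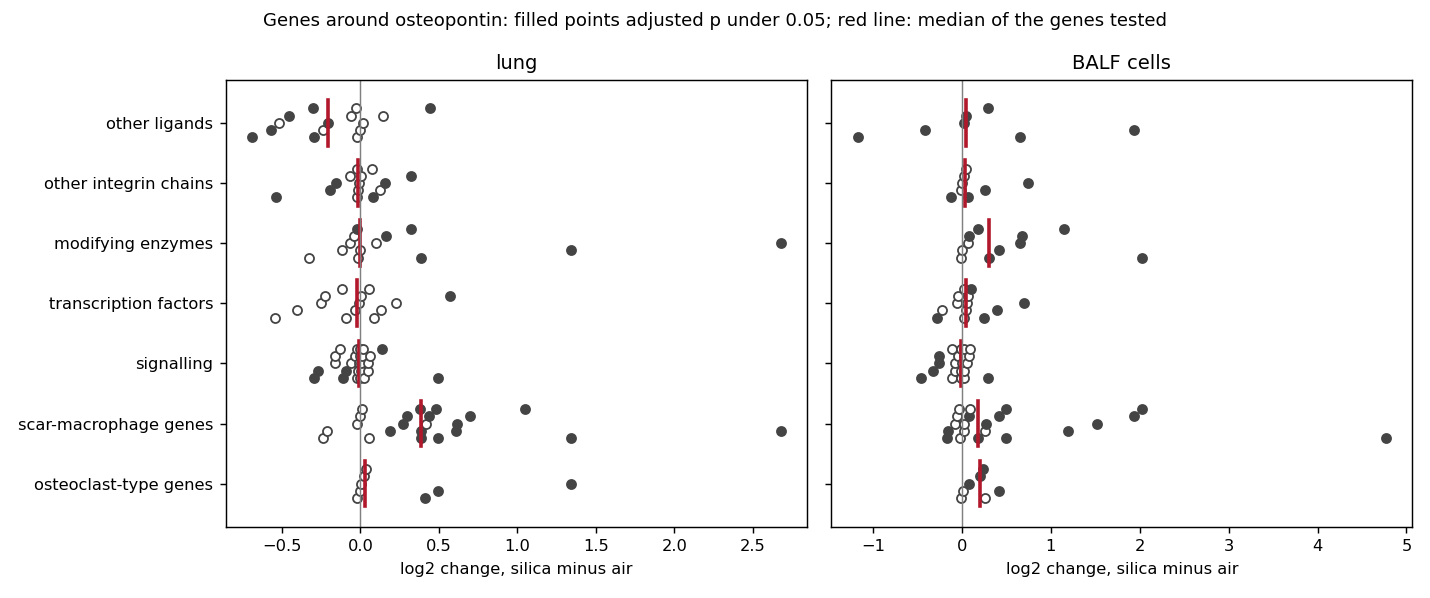
Log2 change, silica minus air, of each gene tested in 7 lists around osteopontin, in lung and in BALF cells; filled points have an adjusted p under 0.05 and red lines give the list medians. In lung the ligands lie mostly below 0 (median -0.21) and the scar-macrophage genes mostly above (median 0.39), while in BALF cells the enzymes have a median of 0.30.

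Markers of several cell types were higher together with Spp1, and those of some were lower in BALF cells. In lung 7 of 12 markers of recruited monocytes and macrophages were higher and 0 lower, against 8.26% of all lung probes higher, and their summed linear intensity was 13260 to 17228 in silica rats, against 9360 to 11487 in air rats. In BALF cells 7 of 10 were higher and 0 lower, against 15.2% of all BALF probes higher, with sums of 23224 to 26378 in silica and 19236 to 21622 in air rats. B and plasma cell markers had 3 higher (Jchain, Mzb1 and Igh-1a) and 0 lower of 6 in lung, with sums of 5438 to 10086 in silica and 2849 to 3944 in air rats. In BALF cells 1 of them was tested and was not called. Alveolar type 2 markers had 4 higher and 0 lower of 8 in lung, with sums of 105612 to 117120 in silica and 96181 to 112119 in air rats, and 1 higher and 1 lower of 3 in BALF cells, with sums of 4076 to 5282 in silica and 3336 to 4375 in air rats. Alveolar macrophage markers had 4 higher and 2 lower of 10 in lung, with sums of 21829 to 26795 in silica and 19374 to 23323 in air rats. In BALF cells they had 4 higher and 5 lower of 11, with sums of 16204 to 20794 in silica and 17834 to 20863 in air rats. Neutrophil markers had 1 of 7 higher in lung and 3 of 6 in BALF cells, and T and NK cell markers had 0 of 13 and 7 of 12 higher. In BALF cells 2 of 3 alveolar type 1 markers were higher. Their list sums were 2902 to 3811 in silica and 1220 to 1273 in air rats. Platelet markers were lower there for 2 of 2, with sums of 3861 to 5742 in silica and 6919 to 9492 in air rats. Club and ciliated markers were lower for 3 of 6, with sums of 4802 to 8207 in silica and 8051 to 18467 in air rats. Of all BALF probes 18.1% were called lower. The part of these cell types in the Spp1 and Cd44 results was not tested.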

How the data were processed

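RNA of lung, BALF cells and blood from 6 silica and 6 air rats was hybridised to Illumina rat bead arrays, 12 arrays per tissue, in 3 deposited tables. Per the file headers, the deposited columns hold the mean bead intensity of each probe, its detection p-value, the standard error over beads and the number of beads. The authors also deposited processed values, which behave as log2 values and for which the sources used here give no scale, centring or steps. BeadStudio, lumi and limma are named in the submitters' processing notes.

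Each tissue was normalized on its own with neqc in limma 3.58.1 (R 4.3.3), which corrects background by normexp with the background inferred from the detection p-value, adds an offset of 16, normalizes by quantiles and takes log2. A probe entered the test when at least 6 of 12 arrays had a detection p-value under 0.05; lmFit and eBayes were used, silica minus air, two-sided, with Benjamini-Hochberg adjustment over all probes tested and calls at 0.05. Differences of silica effects between tissues were fitted on within-rat differences. Rats were matched across tissues through the rat numbers in the labels, which match the replicate numbers in the titles; 1 blood array (silica replicate 6) ends in 8 in its sample name. No count model applied, and the number of arrays limits the precision. The fit was tested on simulated data.

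Names came from the array annotation, with older symbols updated through RefSeq (GRCr8). Current symbols covered 9918 of 21792 probes, synonyms 4817 and gene IDs 1586. 117 probes had no symbol and the rest kept the file's name. For genes with several probes, the probe of highest mean intensity was used. The text names all members, up to 4 called genes per list and tissue by size of change, further members as values, and the 5 genes most like Spp1. Itgb5 and Itga9 were added through their updated names. The members and lists were chosen with earlier results of these data known.

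Slide and scan were not used here. Alternatives were other background corrections, normalizations, filters, variance models and the authors' values, and leaving out each array. An alternative chosen after seeing the data read each array's background spread from the quantiles of its detection p-value, because the spread that neqc inferred was far larger. Sequences are RefSeq's. Figures were drawn with matplotlib 3.10.9.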

Additional observations from a re-analysis of the deposited data

Results flagged for a closer look

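Of 36 groups of 6 arrays checked for a sample far from the others, 1 was past the limit, and chance gives about 1 in 20. In lung, air replicate 3 had 7.80 log2 units of Spp1, above the other 5 air lungs, and its raw intensity was 229. Without it the lung difference was 3.66 log2 units.

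The silica effect differed between tissues for 2 receptor genes by a limma test of the difference itself. For Cd44, the effect in lung minus that in BALF cells was 0.83 log2 units, and the effect in BALF cells minus that in blood was -0.62. For Itgb5, the effect in lung minus that in BALF cells was -0.30, a call that was lost with the smaller background spread, where it was -0.14 (adjusted p = 0.536).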

How the results depend on the processing

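Over all alternatives, no call changed direction. Spp1 kept its call in lung (3.24 to 4.91 log2 units) and in BALF cells (3.33 to 3.75) in every alternative, with its largest lung move (4.91) under the smaller background spread. Counts of called probes fell furthest under the 2 shifts in place of quantile normalization; the cause was not tested. Under the median shift, calls were 37 higher and 40 lower in lung, 275 and 207 in BALF cells, 134 for the lung effect minus the BALF effect, 4 for lung minus blood and 54 for BALF cells minus blood. Lost there were lung Cd44 (0.25) and Itgb5 (-0.54), BALF Cd44 (-0.38) and Itgav (0.13), and among differences of effects Cd44 (0.64) and Itgb5 (-0.53) for lung minus BALF cells and Cd44 (-0.80) for BALF cells minus blood. Under the detected-probe shift, calls were 322 higher and 659 lower in lung, 513 and 721 in BALF cells, and 846, 154 and 458 for the 3 differences, and lung Cd44 (0.37) and BALF Itgav (0.17) were lost. BALF Itgav (0.13) also missed the threshold with no filter on dim probes, where more probes are adjusted for (adjusted p = 0.0728).

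Calls gained were lung Itgav with array weights (0.089), and with the authors' processed values BALF Itgb1 (0.11) and the Itgb1 differences for lung minus BALF cells (-0.18) and BALF cells minus blood (0.22). For BALF cells minus blood, Itgav was gained with a trended robust variance (0.12) and Itgb1 with the 3 tissues normalized together (0.19), which left 399 calls for lung minus blood. The sign of the Itgb1 difference for BALF cells minus blood was not stable. It ran from -0.18 to 0.26 over the alternatives other than leaving out an array. The smaller background spread, an alternative chosen after seeing the data, called Spp1 (1.53) and lost Itgb5 (-0.14) for lung minus BALF cells, and gave 334 calls for lung minus blood. It moved 15 of the 47 named list changes by over 1.5 times.

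Same-numbered silica and air rats are different animals. Correlations of their deviations were -0.40 to 0.33 in lung, -0.20 to 0.39 in BALF cells and -0.49 to 0.32 in blood. These values cannot show whether such rats shared a slide or a processing set. With the replicate block, calls were 603 higher and 665 lower in lung and 308 for lung minus blood, BALF Itgav (0.13) had an adjusted p of 0.0627, and Itgb1 (-0.15) and Itga4 (0.38) were called for lung minus BALF cells.

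Leaving out each array gave 0.064 to 0.097 for lung Itgav, 0.094 to 0.16 for BALF Itgav, 0.066 to 0.097 for BALF Itgb1 and -0.15 to -0.074 for BALF Itga4. Blood had 0 to 1 lower probes. For lung minus BALF cells, Itgb1 ran from -0.18 to -0.12 and Itga4 from 0.30 to 0.44, and each was called in 1 of the 12 fits. Lung minus blood had 462 to 658 calls, with 462 without silica replicate 5 and 469 without air replicate 2. For BALF cells minus blood, Itgav ran from 0.091 to 0.15 (called in 2 of the 12 fits) and Itgb1 from 0.19 to 0.29 (called in 3). Of 1126 recomputed values of the 39 named list genes (47 changes, since some are named in both tissues), 69 lost their call and 0 changed direction. Dim probes near the background, such as Itga9 and BALF Itgb5, have compressed changes.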
